A study of Mus musculus with 4 samples.

Results

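The 10 genes described here encode inducible phosphatases of the MAP kinases and feedback regulators of the Ras-ERK pathway. They are the dual-specificity phosphatase genes Dusp1, Dusp2, Dusp4, Dusp5, Dusp6, Dusp7 and Dusp16, the Spred inhibitors Spred1 and Spred2, and the Ras activator Rasgrp1. They were taken by symbol from the 17013 genes listed for the series, and were chosen by their expression in Fat and Con, so the differences between these groups are given as a description of these genes, without a p-value. Macrophages were grown with M-CSF from bone marrow of WT mice (C57BL/6 males) and kept for 24 h on porous inserts, with artificial necrotic bone fluid (aNBF) above the cells in both groups. Below the inserts was medium from digested and freeze-thawed abdominal fat. Con, the fat control medium, was its middle layer and Fat, the high-fat-containing medium, its top layer, and each group had 2 libraries. The sources used here do not say whether the libraries of a group came from separate animals or cultures, so the spread between them may be technical. The Fat libraries also differ from Con in whatever else the top layer carried, and this cannot be told apart from an effect of fat uptake.

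MAP kinases are switched on when a threonine and a tyrosine in their activation loop are phosphorylated. The MAP kinase phosphatases remove both phosphates and differ in which kinase they prefer and in where in the cell they act. Many of them are themselves transcribed in response to MAP kinase activity, which makes them a negative feedback, and in macrophages they limit the output of Toll-like receptor signalling. Spred proteins bring the Ras GTPase-activating protein neurofibromin to the membrane and so restrain Ras, whereas RASGRP1 is an exchange factor that loads Ras with GTP in response to diacylglycerol and is best known in T cells.

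Reads were recovered from the deposited CPM (reads relative to the library total). Over the listed genes they summed to between 33573852 and 40785872 per library. The sums of Con replicate 2 (37881292), Fat replicate 1 (37534565) and Fat replicate 2 (40785872) exceed the read depth stated by the authors. The 10 genes had between 44 and 5227 reads in a library. Macrophage markers were abundant in every library. All 10 genes of the macrophage list were found, among them Csf1r, which encodes the M-CSF receptor, at 1477 to 1852 CPM. Of these 10 genes 2 were called lower in Fat, Mertk and Fcgr1, beside 624 of all 12470 genes tested as given below. The summed level of the 10 genes was 34331 to 36420 CPM in Con and 27271 to 28897 CPM in Fat. Most of this sum was Lyz2, at 28720.5 and 26818.8 CPM in Con and 21516.1 and 20346.7 CPM in Fat. Lyz2 itself was not called. The Fat libraries lay below Con in 7 of the 10 genes, beside 3271 of all 12470 tested genes, and Cd68, Itgam and Cx3cr1 overlapped. The part of these differences in the results was not tested. Genes reaching 0.5 CPM in 2 or more libraries, 12470 in number, were tested with limma for a Fat-Con difference on log2(CPM + 0.1), and a gene was called at a Benjamini-Hochberg adjusted p-value under 0.05. Log2 fold changes (log2 differences) are Fat minus Con on this scale, which understates the differences of low genes, and are given with their standard errors (SE).

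All 10 genes passed the filter on low values. In Fat, 4 of them were called higher (Dusp5, Dusp4, Dusp1 and Spred2) and 1 lower (Rasgrp1). Over all tested genes 9.0% were called, 3.99% higher and 5.0% lower. Because the genes were chosen on this contrast, nothing follows from that difference. The 2 Fat libraries lay above both Con libraries in 4 of the 10 genes and below both in 2, and this separation in either direction was seen in 55.6% of all tested genes. The median log2 fold change of the 10 genes was 0.00, beside 0.01 over all tested genes. Without Con replicate 1, or without Fat replicate 2, 3 of the 10 genes were called. With either library removed Dusp4 and Spred2 were the genes that lost the call. In bulk RNA, a lower level per cell and fewer cells that express a gene cannot be told apart.

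**Figure D1:**
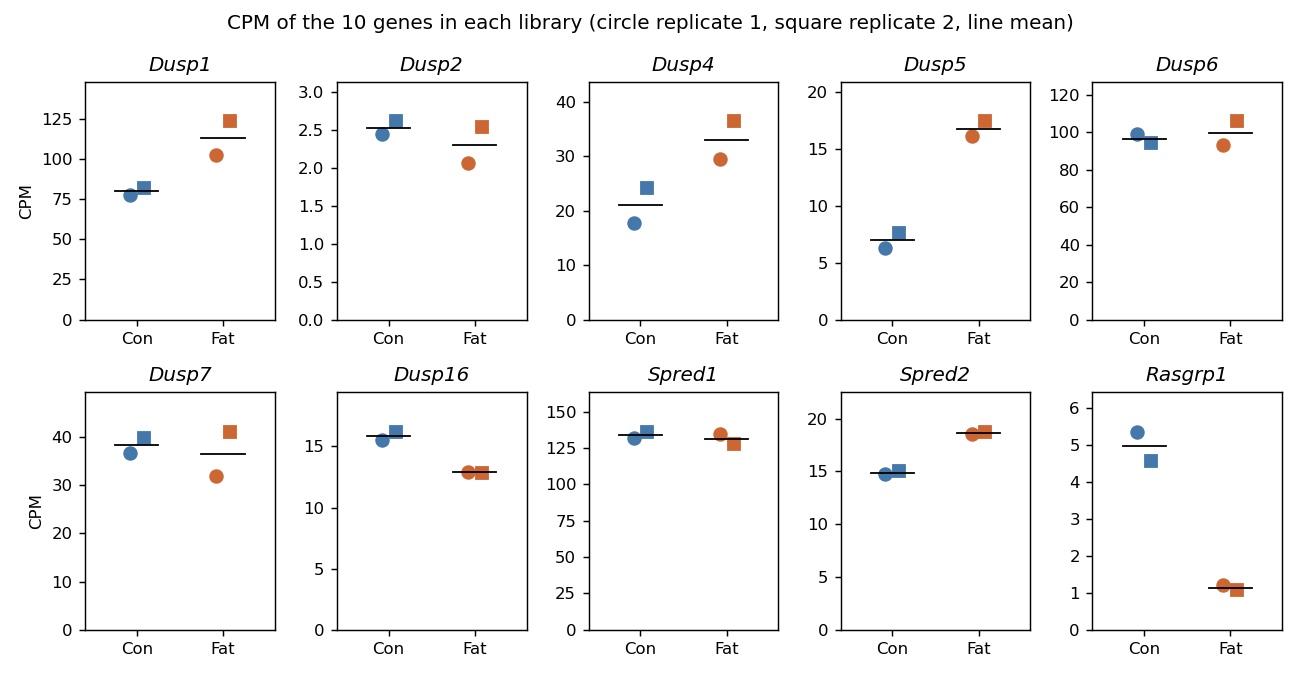
CPM of each of the 10 genes in the 2 Con libraries (blue) and the 2 Fat libraries (orange), with circles for replicate 1, squares for replicate 2 and a line at the group mean; each panel has its own linear axis from 0. The Fat libraries lie above Con for Dusp1, Dusp4, Dusp5 and Spred2, below Con for Dusp16 and Rasgrp1, and overlap with Con for the other 4 genes.

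Of the 4 nuclear inducible phosphatase genes, Dusp5, Dusp4 and Dusp1 were called higher in Fat and Dusp2 was not called. Dusp5, which encodes a nuclear phosphatase selective for ERK, had 6.31 CPM in Con replicate 1, 7.65 CPM in Con replicate 2, 16.2 CPM in Fat replicate 1 and 17.4 CPM in Fat replicate 2. Values of the other genes follow the same order of libraries. Both Fat libraries were high, and the lower of them stood 2.11-fold above the higher Con library. The Con mean was 6.98 ± 0.948 CPM (SD, n = 2) and the Fat mean 16.8 ± 0.909 CPM (SD, n = 2), a 2.41-fold difference and a log2 fold change of 1.26 (standard error 0.12). Leaving out single libraries gave Dusp5 log2 fold changes of 1.12 to 1.40.

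Dusp4, whose product (also called MKP-2) acts on ERK and JNK in the nucleus, was at 17.8 and 24.2 CPM in Con and at 29.5 and 36.4 CPM in Fat. The groups did not overlap, but the libraries within each group differed by 0.44 (Con) and 0.30 (Fat) on the log2 scale. Its log2 fold change was 0.66 (standard error 0.15), or 0.44 without Con replicate 1. Dusp1, the gene of MKP-1, which acts mainly on p38 and JNK in macrophages, was at 77.6 and 82.0 CPM in Con and at 103 and 123 CPM in Fat. The higher value in Fat came from replicate 2, without which the log2 fold change of 0.50 (standard error 0.09) was 0.36. Dusp2 (PAC-1), a phosphatase of leukocytes, was the low member of this group, at 2.45 and 2.61 CPM in Con and 2.06 and 2.54 CPM in Fat. Its groups overlapped, and the log2 fold change was -0.14 (standard error 0.18).

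The cytoplasmic phosphatases selective for ERK differed little between the media. Dusp6 (MKP-3) was at 98.8 and 94.2 CPM in Con and at 92.9 and 106 CPM in Fat. Both Con libraries lay between the Fat libraries, and the log2 fold change was 0.04 (standard error 0.07). Dusp7 was at 36.8 and 39.9 CPM in Con and at 32 and 41.1 CPM in Fat, with both Con libraries again between the Fat libraries and a log2 fold change of -0.08 (standard error 0.12). Dusp16 (MKP-7), which acts on JNK and p38, was at 15.6 and 16.2 CPM in Con and at 12.9 and 12.9 CPM in Fat. Both Fat libraries were lower and nearly equal to each other, and the difference of -0.30 on the log2 scale (standard error 0.08) did not pass the call.

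**Figure D2:**
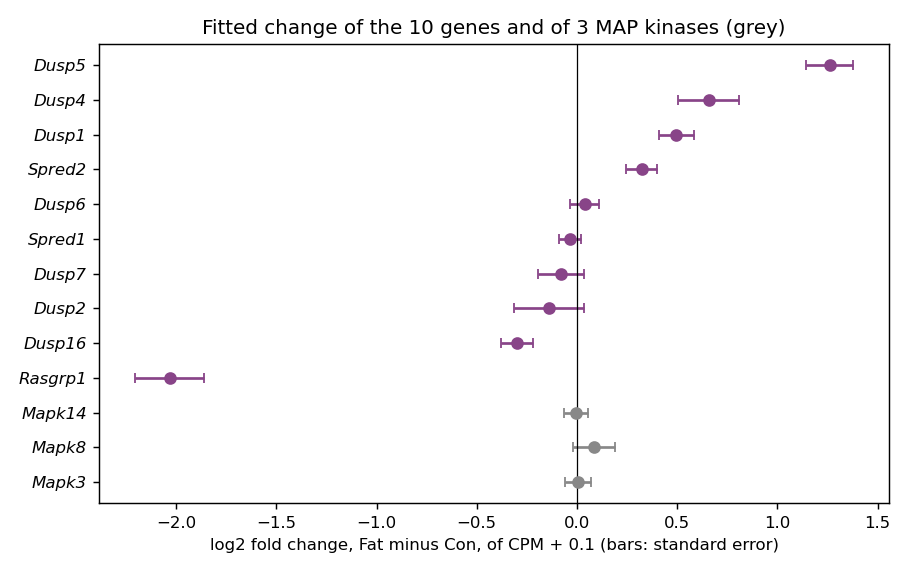
Fitted log2 fold change (Fat minus Con, on CPM + 0.1) with its standard error for the 10 genes (purple, ordered by value) and for 3 MAP kinase genes (grey). Dusp5 stands at 1.26 and Rasgrp1 at -2.03, while the 3 kinases lie between -0.00 and 0.09.

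Sequence upstream of the start site is shown for the gene with the largest rise, for Dusp1, for Dusp6 as a phosphatase that was not called, and for Rasgrp1. The sequences are the 250 bases before the RefSeq start site in build GRCm38.p6, read 5′ to 3′ on the gene's strand, at chr19:53528895-53529144 (plus strand) for Dusp5, chr17:26508473-26508722 (minus strand) for Dusp1, chr10:99262981-99263230 (plus strand) for Dusp6 and chr2:117342878-117343127 (minus strand) for Rasgrp1. The submitters' processing notes name GRCm39 for the reads, and the sequences were matched by symbol alone. Capitals mark matches to any of 6 motifs searched on both strands.
Dusp5: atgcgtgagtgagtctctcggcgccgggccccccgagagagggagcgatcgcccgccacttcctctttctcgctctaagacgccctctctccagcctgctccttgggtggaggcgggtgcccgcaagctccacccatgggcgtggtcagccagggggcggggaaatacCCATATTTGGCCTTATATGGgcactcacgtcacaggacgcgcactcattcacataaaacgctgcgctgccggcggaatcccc
Dusp1: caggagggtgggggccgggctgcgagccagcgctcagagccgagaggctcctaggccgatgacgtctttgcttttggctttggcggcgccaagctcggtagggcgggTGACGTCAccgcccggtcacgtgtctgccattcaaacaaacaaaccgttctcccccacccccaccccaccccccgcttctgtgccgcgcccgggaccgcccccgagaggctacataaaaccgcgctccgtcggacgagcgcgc
Dusp6: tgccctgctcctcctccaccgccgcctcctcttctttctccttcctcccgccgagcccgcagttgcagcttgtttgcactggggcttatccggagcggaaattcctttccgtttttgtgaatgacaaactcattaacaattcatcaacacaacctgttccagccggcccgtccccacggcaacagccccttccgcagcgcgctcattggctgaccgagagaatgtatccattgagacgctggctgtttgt
Rasgrp1: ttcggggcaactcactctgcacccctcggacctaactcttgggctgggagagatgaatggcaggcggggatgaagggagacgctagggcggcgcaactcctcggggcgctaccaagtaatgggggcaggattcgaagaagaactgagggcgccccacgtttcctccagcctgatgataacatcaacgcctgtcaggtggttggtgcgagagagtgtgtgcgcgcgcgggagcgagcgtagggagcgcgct

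The motifs were AP-1 (TGANTCA), the cAMP response element (CRE, TGACGTCA), an ETS site (CCGGAA) and an EGR site (GCGNGGGCG). The CArG box of serum response elements and the NF-kB consensus were searched as well. Dusp5 held 2 CArG boxes that abut without overlapping, at 82 to 73 and 72 to 63 bases before the start site. Such a box was found in 1.47% of the 32851 promoters in the table. Dusp1 held a CRE at 143 to 136 bases before its start site, a motif of 1.55% of the promoters. EGR sites were found upstream of Dusp2 and Dusp16 (4.70% of promoters). AP-1, ETS and NF-kB motifs in the forms searched occur in 6.75%, 12.0% and 7.25% of promoters. These forms were not in the 250 bases of the 9 genes that matched the table. Shorter or variant forms of these sites were not searched, so their absence was not shown. The matches are a description of sequence, and binding was not measured. The 9 windows had GC contents from 56.0% (Spred2) to 77.2% (Dusp7), above the median of 52.4% over all promoters in the table.

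Transcript levels of different genes were compared in TPM, which is also scaled by gene length. In Con, Dusp1 was the highest of the 10 genes at 89.0 ± 2.19 TPM (SD, n = 2), followed by Dusp6 at 74.8 ± 3.52, Spred1 at 41.1 ± 0.298, Dusp7 at 25.9 ± 1.11, Dusp4 at 18.7 ± 3.80 and Dusp5 at 13.1 ± 1.6. Below these were Spred2 at 11.2, Dusp16 at 6.73, Dusp2 at 3.39 and Rasgrp1 at 2.11 TPM. No neighbours in this order overlapped in their libraries. In Fat the order was that of Con except that Dusp5 (32.2 ± 1.72 TPM) and Dusp4 (30.1 ± 4.45 TPM) stood before Dusp7 (25.2 ± 4.44 TPM). Dusp5 overlapped with Dusp4 and Dusp4 with Dusp7, so their order in Fat is not larger than the spread between libraries. Dusp1 was at 129 ± 16.7 TPM and Dusp6 at 78.6 ± 7.13 TPM in Fat.

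Together the 7 phosphatase genes held 228 and 235 TPM in the Con libraries and 279 and 328 TPM in the Fat libraries. The 4 nuclear inducible genes made up 52.1% and 55.1% of this sum in Con and 63.7% and 64.2% in Fat. Dusp5 alone went from 5.25% and 6.04% to 11.1% and 10.2%. The share of Dusp6 was 33.9% and 30.7% in Con and 26.4% and 25.5% in Fat, although its TPM overlapped between the groups. Ratios between genes of the same library do not depend on how libraries are scaled to each other. The TPM of Dusp5 relative to Dusp6 was 0.155 and 0.197 in Con and 0.421 and 0.400 in Fat, and that of Dusp1 relative to Dusp6 was 1.13 and 1.25 in Con and 1.59 and 1.68 in Fat.

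**Figure D3:**
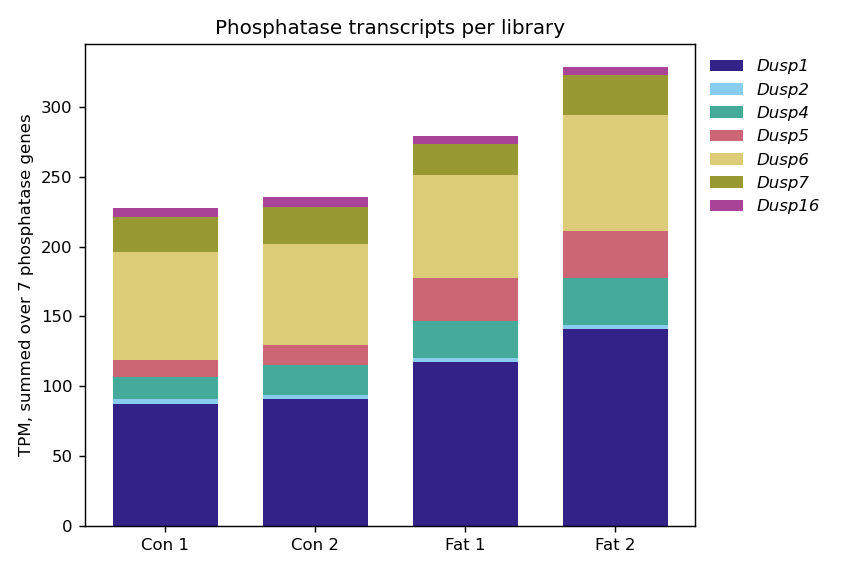
TPM of the 7 phosphatase genes stacked for each of the 4 libraries on a linear axis from 0. The stacks reach 228 and 235 TPM in Con and 279 and 328 TPM in Fat, with taller Dusp1, Dusp4 and Dusp5 segments in Fat.

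Of the Spred inhibitors, Spred2 was called higher in Fat and Spred1 was not called. Spred2 was at 14.7 and 15.0 CPM in Con and at 18.5 and 18.8 CPM in Fat, with replicates closer together than for any of the phosphatases called higher. Both Fat libraries were above Con, and the log2 fold change was 0.32 (standard error 0.08). The size of this difference was 0.31 to 0.34 when single libraries were left out, but it was not called in any of these 4 fits or with DESeq2 on the recovered reads. Spred1, the more abundant paralog, was at 132 and 136 CPM in Con and at 135 and 127 CPM in Fat. Its groups overlapped, with a log2 fold change of -0.04 (standard error 0.06). The TPM of Spred2 relative to Spred1 was 0.275 and 0.272 in Con and 0.339 and 0.363 in Fat.

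Rasgrp1 was the member with the largest difference. It was at 5.37 and 4.58 CPM (182 and 172 reads) in Con and at 1.21 and 1.07 CPM (45 and 44 reads) in Fat. Both Fat libraries were low, and the lower Con library stood 3.80-fold above the higher Fat library. The Con mean was 4.98 ± 0.553 CPM (SD, n = 2) and the Fat mean 1.14 ± 0.0936 CPM (SD, n = 2). The log2 fold change was -2.03 (standard error 0.17), with a range of -2.14 to -1.92 when single libraries were left out. Rasgrp1 held 10.2% and 8.68% of the TPM of the 4 Rasgrp genes in Con and 2.51% and 1.99% in Fat. The other members of that family are Ras or Rap exchange factors as well. Rasgrp2 was at 16.3 and 15.5 TPM in Con and 16.8 and 19.4 TPM in Fat, and Rasgrp3 at 3.31 and 3.98 TPM in Con and 2.83 and 2.74 TPM in Fat, and neither was called. Spred1 is a neighbour of Rasgrp1 on the chromosome, with Fam98b as the 1 protein-coding gene between them in the RefSeq annotation, and had the log2 fold change of -0.04 given above.

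Since Rasgrp1 is best known in T cells, T cell genes were read beside it. Of the 11 T cell genes found, the Fat libraries lay below Con in 8 and above Con in 2, and 1 overlapped. Over all 12470 tested genes, they lay below Con in 3271 and above Con in 3664, and 5535 overlapped. Of the 11 T cell genes, 9 were among those tested, and Cd8a and Cd8b1 were below the filter. The genes below Con included those of the CD3 chains, which define T cells. Cd3d was at 1.59 and 1.09 CPM in Con and at 0.723 and 0.732 CPM in Fat. The summed CPM of Cd3d, Cd3e and Cd3g was 4.84 and 3.84 in Con and 2.60 and 2.32 in Fat. Rasgrp1 relative to this sum was 1.11 and 1.19 in Con and 0.464 and 0.463 in Fat, so that the Fat-Con ratio was smaller for Rasgrp1 than for the CD3 genes. Of the 9 T cell genes tested, 0 were called lower with limma, edgeR or DESeq2 (5 at an unadjusted p-value under 0.05 in limma), and Cd28 and Lat were called higher. No gene of the list was at 0 reads in every library, and Cd8b1 had 3 reads or fewer in each. The summed level of the list was 33.9 to 35.4 CPM in Con and 36.8 to 36.9 CPM in Fat. This sum includes the 2 genes above Con. Lat was at 6.25 and 8.98 CPM in Con and 13.2 and 14.6 CPM in Fat. Cd28 was at 4.07 and 3.71 CPM in Con and 7.34 and 6.32 CPM in Fat. The part of T cells in the Rasgrp1 result was not tested. In 6 further marker lists (NK, B, mast, dendritic and endothelial cells and neutrophils), 20 genes were tested and 0 were called with limma or edgeR, with 0 higher and 4 lower at an unadjusted p-value under 0.05 in limma and 1 lower with DESeq2. Of 5 fibroblast genes tested, limma called Dcn lower and 0 higher, and DESeq2 called 0. The 6 fibroblast genes found summed to 614 and 638 CPM in Con and 512 and 656 CPM in Fat, whose part in the results was not tested.

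**Figure D4:**
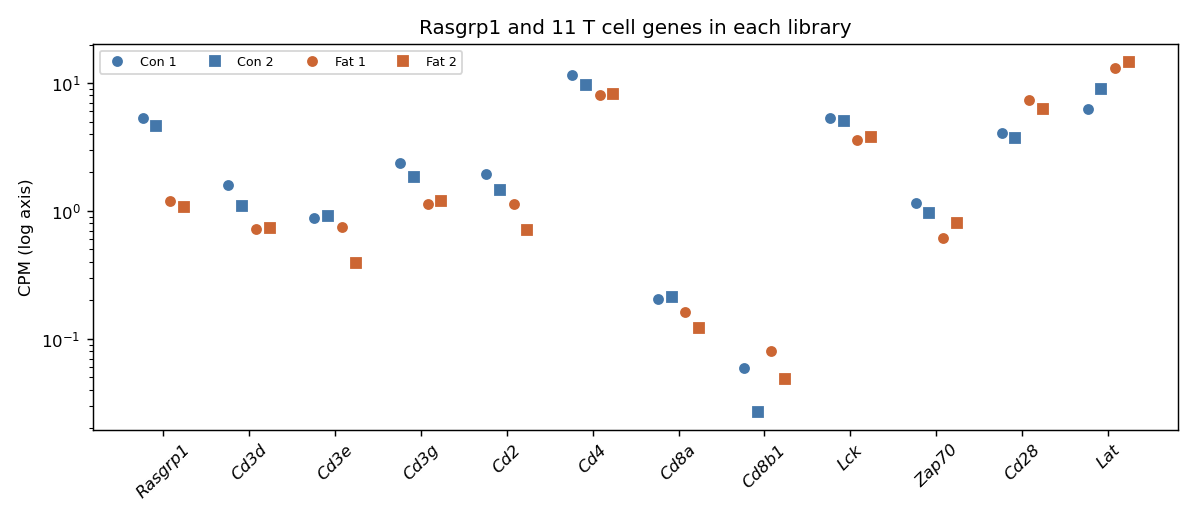
CPM on a log axis of Rasgrp1 and of the 11 T cell genes found, in Con (blue) and Fat (orange), with circles for replicate 1 and squares for replicate 2. Rasgrp1 falls from about 5 to about 1 CPM, while the Fat libraries lie below Con by less for Cd3d, Cd3g, Cd2 and Lck and above Con for Cd28 and Lat.

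Adipocyte RNA was present in the Fat libraries at low levels. Adipoq was at 0 CPM in both Con libraries and at 0.750 and 0.341 CPM in Fat, and the 10 adipocyte genes summed to 20.3 and 20.2 CPM in Con and 20.9 and 21.4 CPM in Fat, most of it Lipe, which macrophages also express. The Fat libraries lay above Con in 8 of these 10 genes, beside 3664 of all 12470 tested genes. Of the 10, only Cidec and Lipe passed the filter on low values and were tested, so these 2 counts are of unlike sets of genes. Cidec was called higher, but it passed the filter through its Fat libraries alone. It was at 0 and 0.0533 CPM in Con and 1.80 and 1.15 CPM in Fat. Lipe was not called, and the other adipocyte genes could not be called. Adrb3 had 3 reads or fewer in each library. The part of adipocyte RNA in the higher levels of Dusp1, Dusp4, Dusp5 and Spred2 was not tested. In the GENCODE vM21 transcripts, 19.7% of the 75-base stretches of Dusp5 also lie in an antisense transcript (AC137853.2) at its start. The library kit marks strand, but the strand setting of the counting was not given in the sources used here, so antisense reads cannot be told apart from those of Dusp5. The other 9 genes shared 0 such stretches with other genes.

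The rest of the pathway was followed in 8 lists of other genes, with 134 of 138 genes found and 124 tested. Of these, limma called 8 higher and 4 lower in Fat, beside 498 higher and 624 lower of all 12470 tested genes. Whether these shares differ was not tested. The median log2 fold change of the 124 pathway genes was 0.05, beside 0.01 over all tested genes. Without Con replicate 1 there were 6 calls in all and without Fat replicate 2 there were 4, against 12 with all libraries. Genes of 3 kinases on which the phosphatases act were not called. Mapk3, the gene of ERK1, differed by 0.00 on the log2 scale (standard error 0.07, limma adjusted p = 0.98), whose sign differed under median-ratio scaling and other alternatives. For the p38α gene Mapk14 it was -0.00 (standard error 0.06, limma adjusted p = 0.977, with the opposite sign in TPM), and for the JNK1 gene Mapk8 it was 0.09 (standard error 0.10, limma adjusted p = 0.668). RNA levels do not show whether the kinases were phosphorylated.

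Among the 20 tested genes of the p38 and JNK cascade, limma called 0, with 3 higher and 0 lower at an unadjusted p-value under 0.05, and edgeR and DESeq2 called 0 as well. In the Ras-Raf-MEK-ERK cascade limma called 1 of 18 genes higher and 1 lower, as did edgeR, while DESeq2 called 1 higher and 0 lower. Those called with limma were related small GTPases. Rras2 (TC21) was at 19.3 and 21.3 CPM in Con and 30.6 and 28.2 CPM in Fat (log2 difference 0.53, SE 0.08, limma adjusted p = 0.0111). Mras, whose product activates Raf together with SHOC2, was at 28.6 and 27.4 CPM in Con and 22.5 and 22.6 CPM in Fat (log2 fold change -0.31, limma adjusted p = 0.0321). The call for Mras was lost without any one of the 4 libraries, at adjusted p-values from 0.0517 to 0.133. Of the 10 kinases activated by MAP kinases, Rps6ka2 (RSK3) was called higher with limma, edgeR and DESeq2, at 19.2 and 22.1 CPM in Con and 29.1 and 28.3 CPM in Fat (log2 fold change 0.48, limma adjusted p = 0.0174). DESeq2 also called Mapkapk2, named after its value was seen, lower (log2 difference -0.23, DESeq2 adjusted p = 0.0356), while limma and edgeR called 0 genes of this list lower (1 at an unadjusted p-value under 0.05 in limma).

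Of 13 tested genes of other Ras activators and adaptors, 1 was called lower and 0 higher with limma, edgeR and DESeq2, and 1 was higher at an unadjusted p-value under 0.05. The gene called was Rasgef1b, an exchange factor gene that Toll-like receptor ligands induce in macrophages. Rasgef1b was at 38.7 and 38 CPM in Con and 22.7 and 20.0 CPM in Fat, with both Fat libraries low. Fat minus Con was -0.85 on the log2 scale (standard error 0.08, limma adjusted p = 0.00316). Of 22 other Ras-ERK inhibitors and Ras GTPase-activating proteins, 1 was called higher and 0 lower with limma, and 6 and 2 had an unadjusted p-value under 0.05. edgeR called 1 higher and 1 lower, and DESeq2 1 and 0. The gene called higher was Dab2ip, a Ras GTPase-activating protein, at 6.78 and 7.54 CPM in Con and 10.1 and 10.4 CPM in Fat (log2 fold change 0.52, limma adjusted p = 0.0252). Its call was lost without Con replicate 1 (adjusted p = 0.0975), Fat replicate 1 (0.0533) or Fat replicate 2 (0.103).

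Among 9 other phosphatase genes for MAP kinases that were tested, 0 were called with limma, edgeR or DESeq2, and 1 was higher at an unadjusted p-value under 0.05. The one with the highest mean CPM, which is not scaled for gene length, was Ppp2r1a, a subunit gene of protein phosphatase 2A. It differed by 0.03 on the log2 scale (standard error 0.06, limma adjusted p = 0.854). Of 11 further Dusp genes, Dusp13 was called higher (log2 difference 0.99, standard error 0.22, limma adjusted p = 0.0368) and Dusp28 lower (log2 difference -0.53, SE 0.13, limma adjusted p = 0.0416). In this list edgeR called 1 higher and 1 lower, whereas DESeq2 called 0. Without the filter on low values limma called 0 of this list as well. Dusp13 was a low gene, at 1.0 and 1.49 CPM in Con and 2.52 and 2.56 CPM in Fat, and its call was lost without Con replicate 1 (adjusted p = 0.121), Fat replicate 1 (0.0774) or Fat replicate 2 (0.118). That of Dusp28 was lost without Con replicate 1 (adjusted p = 0.142), Con replicate 2 (0.0867) or Fat replicate 2 (0.187).

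Transcripts that respond to ERK or belong to the immediate early genes had the highest median of the 8 lists, with a log2 fold change of 0.18 over 21 tested genes. Of these, 4 were called higher, 1 lower and 16 were not called, with log2 fold changes from -0.40 to 0.99. The Fat libraries lay above Con in 9 of the 21, below Con in 4 and overlapped in 8. Over all 12470 tested genes these numbers were 3664, 3271 and 5535. Fos, the immediate early partner of JUN in AP-1, was at 136 and 151 CPM in Con and 260 and 313 CPM in Fat (log2 difference 0.99, SE 0.09, limma adjusted p = 0.00328). Both Fat libraries were high. The related genes Fosl1 and Fosl2 had log2 fold changes of 0.57 and 0.41 (limma adjusted p = 0.0184 and 0.0206). Phlda1, named after its value was seen, had one of 0.44 (limma adjusted p = 0.0402). The gene called lower was Ccnd1, which encodes cyclin D1, at 124 and 134 CPM in Con and 103 and 104 CPM in Fat (log2 fold change -0.32, limma adjusted p = 0.0201). Without Fat replicate 2 the calls of Fosl1, Fosl2 and Ccnd1 were lost (limma adjusted p = 0.0754, 0.0566 and 0.0657), as were that of Fosl1 without Con replicate 1 (0.0639) and that of Ccnd1 without Fat replicate 1 (0.0519). The call of Phlda1 was lost without Con replicate 1 (limma adjusted p = 0.115), Con replicate 2 (0.0591) or Fat replicate 2 (0.21). Of the 4 genes called higher, Fos was the 1 whose call held with each library left out.

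**Figure D5:**
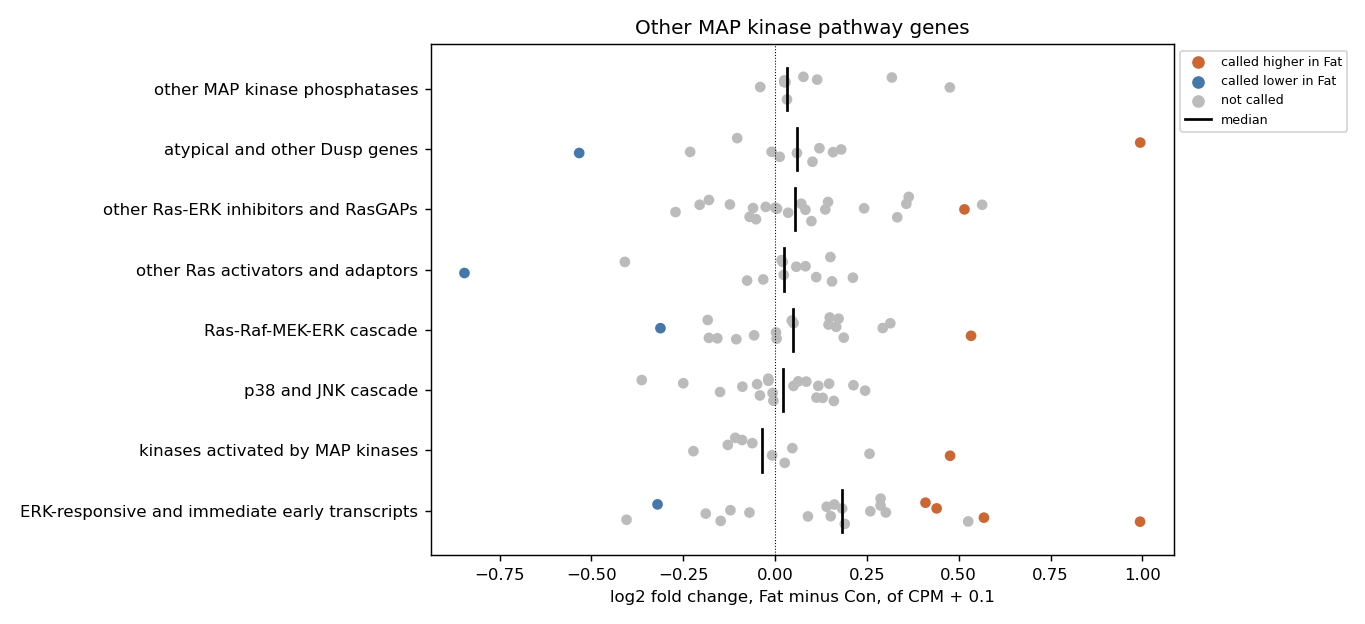
Log2 fold change (Fat minus Con, on CPM + 0.1) of each tested gene in the 8 lists of other MAP kinase pathway genes, with called genes in colour and a black line at each list's median. The medians lie between -0.03 and 0.18, and Rasgef1b (-0.85), Fos (0.99) and Dusp13 (0.99) lie farthest from 0.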

How the data were processed

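Polyadenylated RNA of 4 libraries (2 Con, 2 Fat) was sequenced by the authors as single reads of 75 bases, and per-gene values were deposited as CPM and as TPM. The deposited CPM are reads relative to the library total, divided by a further factor per library (0.990 to 1.01), and the TPM deposited by the authors are also scaled for gene length. The submitters' processing notes name the build GRCm39. The aligner, counter and annotation were not given in the sources used here. Groups and replicate numbers came from the sample titles.

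Whole reads were recovered from the CPM steps for 100% of the values (within 0.01 read), and 1 read was worth 0.0244 to 0.0295 CPM. Precision is limited by 2 libraries per group: an exact permutation test of 2 against 2 cannot reach p = 0.05. Fat and Con were compared on log2(CPM + 0.1) by limma 3.58.1 (R 4.3.3), two-sided, with the prior variance following expression (a trend) and p-values adjusted by Benjamini-Hochberg over the 12470 genes that reached 0.5 CPM in 2 or more libraries. Alternatives were TPM, no filter, a filter at a mean of 5 CPM, a pseudocount of 1 CPM, median-ratio scaling, the replicate number as a block, no trend, each library left out, edgeR 4.0.16 (quasi-likelihood, 1138 genes called) and DESeq2 1.42.0 on recovered reads. The tests were checked on simulated counts with a fixed change in well-expressed genes and the same dispersion for all genes. That check does not cover low genes, small changes or the spread of these libraries. The genes and lists were chosen with earlier results of these data known. Named are the 10 genes, up to 3 called genes per list and direction with the smallest adjusted p-values, in a list with no call its gene with the highest mean CPM, and the kinase genes Mapk3, Mapk8 and Mapk14. The rule also covers 1 gene that is not reported here. Of 138 pathway and 76 marker genes, 134 and 71 were found, 1 of each under an older symbol (Zak and Emr1). Promoters are from RefSeq (GRCm38.p6), in which 9 of the 10 genes matched by symbol. Python 3.11.15 with pandas 2.3.3, numpy 2.4.6 and matplotlib 3.10.9 gave the tables and figures.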

Additional observations from a re-analysis of the deposited data

How the results depend on the processing

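Of the 10 genes, 5 were called with all libraries, 3 without the filter on low values, 3 where the mean had to reach 5 CPM (which leaves out Rasgrp1 and Dusp2), 1 without the mean-variance trend and 3 to 4 with each library left out in turn. Rasgrp1 was called in all 12 alternatives that tested it, Dusp5 and Dusp1 in 12 of 13, Dusp4 in 7 and Spred2 in 6, and each of these 5 kept its direction. Over all tested genes 1122 were called, 31 without the trend and 529 to 1131 with each library left out. For the pathway lists, 12 were called, 4 to 18 with each library left out and 0 without the trend with limma (30 at an unadjusted p-value under 0.05). With the replicate number as a block, 2520 of all tested genes and 39 of the pathway genes were called. The labels give no shared origin for same-numbered libraries, whose deviations correlated at 0.20 over 12470 genes and at 0.339 over the 9760 with a mean of 5 CPM or more, and there are only 2 pairs. The block changed the call of 1 of the 10 genes, Dusp16, which was called lower with it. Log2 differences near 0 changed sign. Mapk14 was at 0.0274 in TPM and -0.0718 to 0.0628 with each library left out, Mapk3 at -0.00 under median-ratio scaling, with edgeR and with DESeq2 (-0.0046, -0.0028 and -0.0066) and -0.0763 to 0.0848 with each library left out, Mapk8 at -0.0457 to 0.22 and Ppp2r1a at -0.0333 to 0.0837 with each library left out. The cause of these changes was not tested.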
